A study of Mus musculus with 8 samples.

Results

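Mitotic microglia were the cells whose RNA held several transcripts of the G2 and M phases of the cell cycle. A barcode, the tag that marks 1 cell in a droplet library, was counted as mitotic when at least 1 unique molecule (UMI) was read from at least 3 of 18 genes: Mki67, Top2a, Birc5, Cdca8, Nusap1, Tpx2, Ccnb2, Cenpf, Cenpe, Ube2c, Hmmr, Aurkb, Kif11, Ckap2l, Bub1, Cdca3, Cdc20 and Cdk1. Of 14626 barcodes that passed at least 1000 UMIs, at least 500 genes and at most 10% mitochondrial UMIs, 1745 were mitotic by this rule (11.9%). Since these genes chose the cells, their values below are a description with no test, and the tests concern genes outside the list. 

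The cells came from lumbar spinal cord of C57BL/6 mice and were sorted by flow cytometry for the yellow fluorescent protein (YFP) that the Cx3cr1 locus drives in microglia. Control mice were Cx3cr1-yfp-creER/+, and A20 cKO mice were Cx3cr1-yfp-creER/+; Tnfaip3 fl/fl, so that tamoxifen lets the Cre recombinase of the same locus remove Tnfaip3, which encodes A20, a brake on NF-kB signalling. Each genotype was taken naive and 1, 2 and 3 days after bilateral transection of the sciatic nerve, with the cords of several animals pooled into 1 library per condition. The 8 conditions thus have 1 library each, differences between conditions carry no test, and intervals below cover counting error only. In 6 libraries, holding 1733 of the mitotic cells, at least 20 mitotic cells were present, and these 6 were used for all gene comparisons, namely the control libraries of days 2 and 3 and all 4 A20 cKO libraries. Lists of 6 values below keep this order: control day 2, control day 3, then A20 cKO from naive to day 3.

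A cell that enters mitosis has already copied its DNA. Cyclin-dependent kinase Cdk1 with cyclin B then drives chromosome condensation and spindle assembly, the spindle checkpoint holds sister chromatids together until every kinetochore is attached, and the anaphase-promoting complex with its activator Cdc20 and its ubiquitin-conjugating enzyme Ube2c destroys cyclin B so that the cell can divide. Many of these genes are switched on together late in the cycle by the DREAM, MYBL2 and FOXM1 proteins, acting through CCAAT boxes and the cell cycle homology region (CHR) near the transcription start. Microglia, the resident macrophages of the cord, seldom divide in the uninjured adult and proliferate after peripheral nerve injury.

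The promoters of the rule genes share these letters, which the rule did not use. In the RefSeq promoter table (GRCm38.p6, 250 bases before to 50 after each start), 16 of the 18 genes were matched. A CHR match, searched as TTTGAA or TTCAAA (the same site on either strand) or TTCGAA (its own reverse complement), was present in 13 of the 16, against 19.2% of all 32851 promoters. A CCAAT box (CCAAT, or ATTGG on the other strand) was present in 14 of the 16, against 37.4%, and both were present in 13 against 7.525%. In the 250 bases before the start alone, a CHR match was present in 8 of the 16, against 17.15%. Neither motif's letters can hold the other. The windows below run 120 bases up to the start, 5′ to 3′ on the strand of the gene, with the CHR and CCAAT matches in capitals. They were picked because they put the motifs side by side before the start. The genes are the ubiquitin enzyme Ube2c, the checkpoint target Cdc20, the spindle motor Kif11, topoisomerase Top2a and the kinase Cdk1. Beside them stands Birc5 (survivin), which like Nusap1 had no match. A match is a run of letters and not a measured binding site.
Ube2c, chr2:164769809-164769928, plus strand: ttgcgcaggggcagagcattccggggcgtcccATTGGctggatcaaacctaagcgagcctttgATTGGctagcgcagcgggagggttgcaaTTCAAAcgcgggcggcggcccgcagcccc
Cdc20, chr4:118437344-118437463, minus strand: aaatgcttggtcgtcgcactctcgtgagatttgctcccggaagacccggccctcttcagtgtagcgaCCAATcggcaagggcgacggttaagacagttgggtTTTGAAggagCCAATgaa
Kif11, chr19:37376262-37376381, plus strand: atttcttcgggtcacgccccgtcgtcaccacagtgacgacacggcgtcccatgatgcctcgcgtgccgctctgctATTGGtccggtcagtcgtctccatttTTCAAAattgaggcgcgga
Top2a, chr11:99024190-99024309, minus strand: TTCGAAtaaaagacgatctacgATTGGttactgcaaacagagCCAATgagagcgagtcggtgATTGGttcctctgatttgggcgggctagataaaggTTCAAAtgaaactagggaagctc
Cdk1, chr10:69352913-69353032, minus strand: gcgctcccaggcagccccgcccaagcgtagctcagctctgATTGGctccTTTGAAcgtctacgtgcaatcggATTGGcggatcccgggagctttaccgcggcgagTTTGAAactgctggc
Birc5, chr11:117849117-117849236, plus strand: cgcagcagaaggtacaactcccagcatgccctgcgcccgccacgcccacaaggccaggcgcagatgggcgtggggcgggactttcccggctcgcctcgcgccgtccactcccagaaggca
In Ube2c, Cdc20, Kif11 and Cdk1 a CHR match began 29, 18, 19 and 15 bases before the start, and in Top2a the nearest began 23 bases before it. In each of these 5 genes a CCAAT box lay further upstream of that match. Cdk1 and Cdc20, whose windows hold the pair, were among the genes that chose the cells.

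The share of mitotic cells ranged from 0.176% to 33.2% over the 8 libraries. In control libraries the rule took 1 of 568 kept cells in the naive cord (0.176%), 11 of 3323 at day 1 (0.331%), 1191 of 3585 at day 2 (33.2%, exact 95% interval 31.7 to 34.8%) and 247 of 2117 at day 3 (11.7%, 10.3 to 13.1%). In A20 cKO libraries it took 94 of 2922 in the naive cord (3.22%, 2.61 to 3.92%), 31 of 886 at day 1 (3.50%, 2.39 to 4.93%), 115 of 667 at day 2 (17.2%, 14.4 to 20.3%) and 55 of 558 at day 3 (9.86%, 7.51 to 12.6%). Day 2 was the highest time point in each genotype, and the naive and day 1 A20 cKO libraries lay above the matching control libraries, with intervals that did not overlap. At day 3 the intervals of the genotypes overlapped.

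Deeper cells pass a UMI rule more easily, so each cell was also thinned to 2000 UMIs and cells with fewer were left out. The thinned shares were 0.199%, 0.155%, 15.3% (14.1 to 16.6%) and 8.36% in the control libraries from naive to day 3, and 2.79%, 2.77%, 12.1% (9.69 to 15.0%) and 7.62% in the A20 cKO libraries. Control day 2 fell most, from 33.2% to 15.3%, and its thinned interval overlapped that of A20 cKO day 2.

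**Figure D1:**
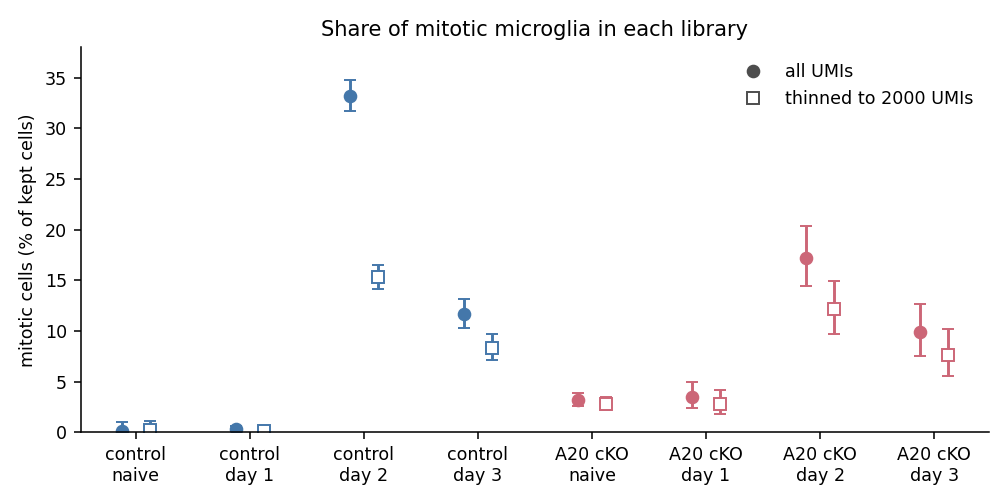
Share of kept cells that were mitotic by the rule in each of the 8 libraries (percent, vertical axis) at all UMIs and after thinning to 2000 UMIs a cell, with exact 95% binomial intervals as error bars. Control day 2 stands highest at 33.2%, and falls to 15.3% after thinning, while A20 cKO day 2 moves from 17.2% to 12.1%.

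The order of the day 2 libraries depended on the number of rule genes asked for. At least 1 rule gene was found in 82.9% of control day 2 cells and in 48.6% of A20 cKO day 2 cells, against 16.5% in the naive A20 cKO library. At a minimum of 7 genes the shares were 10.9% in control day 2 and 11.5% in A20 cKO day 2. At 10 genes they were 6.50% (5.71 to 7.36%) and 9.0% (6.93 to 11.4%), so that the order had turned and the intervals overlapped. At 12 genes they were 3.71% (3.12 to 4.38%) and 7.2% (5.35 to 9.43%), and the intervals did not overlap. After thinning, the intervals separated from 6 genes up, at 4.40% (3.74 to 5.13%) in control day 2 and 8.63% (6.55 to 11.1%) in A20 cKO day 2, and a minimum of 10 genes left 0.23% (0.10 to 0.45%) and 2.88% (1.71 to 4.51%). Just inside the rule, with 3 genes, were 378 control day 2 cells, and just outside it, with 2 genes, were 804. The corresponding numbers were 61 and 151 in control day 3, 15 and 41 in A20 cKO naive, 2 and 14 in A20 cKO day 1, 20 and 54 in A20 cKO day 2, and 8 and 22 in A20 cKO day 3. Cells with exactly 3 rule genes thus made up 378 of the 1191 mitotic cells in control day 2 and 20 of 115 in A20 cKO day 2.

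**Figure D2:**
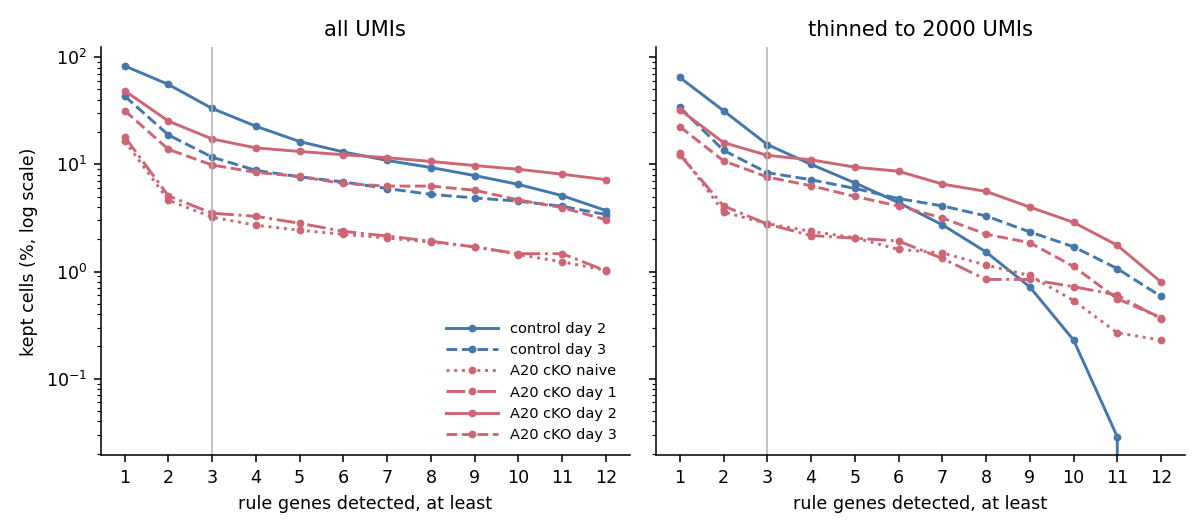
Share of kept cells (percent, log axis) with at least the number of rule genes on the horizontal axis, for the 6 libraries with at least 20 mitotic cells, for all UMIs and for cells thinned to 2000 UMIs. Control libraries are blue and A20 cKO libraries red, and the control day 2 curve starts highest, at 82.9% for 1 gene, and crosses the A20 cKO day 2 curve, reaching 6.50% against 9.0% at 10 genes.

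The content of rule transcripts in the mitotic cells separated control day 2 from the rest in the same way. Summed over the mitotic cells of a library, the 18 genes made up 1849 counts per 1000000 UMIs (CPM) in control day 2, 4237 in control day 3, and 4922, 5592, 4932 and 4712 in A20 cKO naive, day 1, day 2 and day 3. A mitotic cell held a median of 4 rule genes in control day 2, 7 in control day 3, and 9, 8, 10 and 9 in the A20 cKO libraries. The other kept cells of the same libraries still held 318, 149, 54.7, 55.9, 125 and 79.1 CPM, highest in control day 2. Mki67, the proliferation antigen Ki67, stood at 172 CPM in control day 2 mitotic cells, 776 in control day 3 and 833 to 1051 in the A20 cKO libraries. Top2a, which untangles sister chromatids, stood at 381, 819 and 944 to 1383 CPM in the same order. In mitotic cells control day 2 was thus the lowest of the 6 for each of these measures.

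The mitotic cells carried the markers by which microglia are known. P2ry12 had a UMI in 99.4% of the 1745 cells, Tmem119 in 100%, Cx3cr1 in 98.1%, Csf1r in 99.5% and Fcrls in 87.9%. Fcrls varied most between libraries, at 1313 and 1195 CPM in mitotic cells of control day 2 and day 3 and 72.8 to 477 CPM in those of A20 cKO. Oligodendrocyte markers summed to 59.2 to 181 CPM in mitotic cells of the 6 libraries, against 62.6 to 210 in other cells. Astrocyte markers summed to 88.9 to 246 against 115 to 397 CPM, and both lists were lower in mitotic cells of each library. The 4 monocyte markers summed to 2.4 CPM in control day 2 mitotic cells and 47.8 to 144 in the other libraries, against 2.0 and 20.3 to 79.9 CPM in other cells. Nearly all of these UMIs came from Plac8, whereas Ccr2 had 8 UMIs over all mitotic cells, and the part of Plac8 in any result was not tested. Ttr, the choroid plexus marker, was at 0 in control day 2, at 8.48 to 42.3 CPM in mitotic cells of the remaining 5 libraries and at 132 to 513 CPM in their other cells. Ttr was also at 0 in control naive and day 1, so control day 3 stood with the 4 A20 cKO libraries and apart from the other control libraries. These 5 libraries also shared barcodes, 117 over their 10 pairs against 117 over the remaining 18 pairs. Of the mitotic cells, 39 bore a barcode found in another library. Tnfaip3 stood at 7.6 and 15.4 CPM in mitotic cells of the control libraries and at 50.9 to 65.7 CPM in those of A20 cKO, but reads from 3′ tags may lie outside the deleted part and do not check the deletion.

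Mitotic cells held more RNA. Their median UMI count was 5466, 4810, 4751, 4962, 6618 and 6089, against 3548, 3045.5, 2794.5, 3068, 3849.5 and 4149 in the other cells. The rule favours deep cells, so the ratio was taken again with cells called on thinned counts and measured by their full UMI counts. It was then 1.5, 1.46, 1.64, 1.61, 1.69 and 1.43 in the same order, a mean of 0.63 ± 0.10 on the log2 scale (SD, n = 6) and higher in 6 of 6 libraries. The exact two-sided sign-flip permutation test gave p = 0.03125, the smallest that 6 libraries allow. Cells in S phase, called by at least 3 of 12 replication genes and not mitotic, gave ratios of 1.12 to 1.34. Of the 1745 mitotic cells, 997 (57.1%) also met that S-phase minimum, from 38.5% in control day 3 to 77.4% in A20 cKO day 1 among the 6 libraries. On thinned counts the share was 29.8, 22.3, 49.3, 39.1, 28.9 and 34.1%, lower in each library and highest in A20 cKO naive.

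To find what else distinguished the mitotic cells, UMIs were summed over the mitotic and over the other cells of each of the 6 libraries, and edgeR's quasi-likelihood test was run with library as a block. Of 9991 genes tested, 1452 were higher in mitotic cells at an adjusted p under 0.05 (14.5%) and 1078 were lower (10.8%). Without control day 3, 698 were lower. The median over all genes was -0.03 on the log2 scale. Outside the cell cycle and chromatin lists, 1225 of 9735 genes were higher and 1075 lower. Since the libraries are not replicates of 1 condition, these p-values measure the spread between 6 different conditions.

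The machinery of division followed the rule genes, as the choice of cells had to make it do, and its values are given as a description. All 30 spindle motor and midzone genes tested were higher, with a median of 4.06 on the log2 scale. Prc1, which bundles the midzone microtubules, had 87.7, 201, 271, 332, 256 and 232 CPM in mitotic cells of the 6 libraries, against 22.5 in control day 2 and 1.78 to 5.12 elsewhere in other cells. Mitotic and other cells did not overlap, and control day 2 had the lowest value in mitotic cells and the highest in others. All 28 kinetochore and checkpoint genes were higher (median 3.53), among them the checkpoint kinase Ttk and Cenpa, the histone H3 variant of the centromere, which stood at 89.4 to 256 CPM in mitotic and 5.03 to 24.6 CPM in other cells. Of 26 mitotic kinases, cyclins and destruction factors 21 were higher (median 2.92), and of 16 condensin and cohesin genes 15 were (median 2.69).

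Replication genes stayed high in these cells. All 42 DNA replication genes outside the S-phase rule were higher than in other cells, with a median of 1.90, and so were the 12 genes of that rule, with a median of 1.43. Pcna, the sliding clamp of the replication fork, stood at 121 to 260 CPM in mitotic cells and 37.7 to 51.7 CPM in other cells, so that the ranges did not overlap. Among the DREAM, MYBL2, FOXM1, E2F and RB genes, 12 of 21 were higher and none was lower, led by E2f8 at 4.22, E2f7 at 4.01, Foxm1 at 3.78 and Mybl2 at 2.8.

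Clustered histones gave the largest values. Of 27 tested, 25 were higher (median 2.14), led by Hist1h2an at 6.11 and the linker histone Hist1h1b at 5.65. Hist1h1b had 36.9 CPM in control day 2 mitotic cells, 348 in control day 3 and 579 to 882 in A20 cKO, against 1.75 to 8.92 CPM in other cells. Copies of these genes are nearly identical and their transcripts mostly lack a poly(A) tail, so that counts of single members are uncertain. Of 30 chromatin and nuclear envelope genes 28 were higher (median 1.31), among them the DNA damage histone H2afx at 2.83 and the methyltransferase Ezh2 at 2.85. Stmn1, which destabilises microtubules, had 842, 1131, 1269, 1455, 1019 and 1167 CPM in mitotic cells and 395, 195, 85.7, 83.5, 127 and 97.8 in other cells. Control day 2 again had the narrowest gap.

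Genes of the G1 phase divided. The D cyclins Ccnd1 and Ccnd2, which start the cycle, were lower in mitotic cells, by -0.34 (adjusted p = 0.00478) and -0.95 (adjusted p = 0.0239), while the CDK inhibitors Cdkn2c (3.03), Cdkn2a (2.95) and Cdkn2d (1.81) and the E cyclins Ccne1 and Ccne2 were among 7 of 14 that were higher. Cdkn2c had 60.1 CPM in control day 2 mitotic cells and 103 to 114 in the remaining 5, against 5.49 to 19.1 in other cells. Cdkn1a, which encodes the inhibitor p21, stood at 264 to 458 CPM in mitotic and 239 to 455 in other cells, ranges that overlap, with a log2 difference of 0.10 (adjusted p = 0.469).

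Among the most changed genes outside the cycle lists were several that act in DNA repair: Neil3, a glycosylase (4.28), Brca1 (3.34), its partner helicase Brip1 (3.42), Rad54l (3.06), the Fanconi anaemia enzyme Ube2t (3.62) and the nuclease Ankle1 (4.04). Neil3 had 44.6, 78.6, 91.1, 151, 146 and 122 CPM in mitotic cells and 1.05 to 10.3 in other cells. The non-coding RNA Lockd (4.36), Trim59 (4.27), the formin Diaph3 (4.14) and the cytoskeletal linker Gas2l3 (3.06) were the rest of the 10 genes with the highest ratios outside those lists. A gene outside the lists can still be transcribed with the rule genes, and such a gene had to be higher by the choice of cells. The values of these 10 genes are therefore also a description.

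Genes by which resting microglia are recognised were lower in mitotic cells. Of 34 homeostatic genes tested, 26 were lower and none was higher, with a median of -0.32 against -0.03 over all genes. The purinergic receptor P2ry12 had 2039, 1518, 1248, 737, 693 and 706 CPM in mitotic cells of the 6 libraries, against 2797, 2328, 2839, 1453, 981 and 867 in other cells. It was lower in 6 of 6 libraries, by -0.69 (adjusted p = 1.85e-05), although the ranges of the classes overlap because P2ry12 also differed between libraries. The lysophosphatidylserine receptor Gpr34 had 692, 484, 398, 278, 186 and 277 CPM in mitotic cells and 1003, 860, 1133, 577, 356 and 437 in other cells, a difference of -0.92 (adjusted p = 2.23e-06). Ltc4s, the leukotriene C4 synthase, had 935, 418, 167, 96.6, 109 and 84.8 CPM against 1090, 697, 427, 356, 250 and 204, also -0.92 (adjusted p = 8.90e-05). In each library mitotic cells were the lower for all 3 genes, and the gap in Ltc4s was widest in A20 cKO.

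Smaller differences were found for the protease inhibitor Cst3 (-0.54, adjusted p = 8.57e-06), Tmem119 (-0.32, adjusted p = 0.000348) and Sall1, a transcription factor of microglial identity (-0.33, adjusted p = 0.00636). Csf1r, the receptor for the growth factor CSF1, did not pass (-0.14, adjusted p = 0.0742), nor did Aif1, which encodes IBA1 (-0.01, adjusted p = 0.931), or Fcrls (-0.29, adjusted p = 0.199, higher in 3 of 6 libraries). With cells thinned 27 of the 34 homeostatic genes were lower, with only cells of 3000 to 8000 UMIs 25, without control day 2 29 and without control day 3 24. Over all genes 547 of 8574, 753 of 9694, 1286 of 9693 and 698 of 9974 were lower in these settings.

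Disease-associated microglia genes, which rise in microglia around plaques and lesions, also leaned downward. Of 20 tested, 10 were lower and none was higher (median -0.29). Apoe, the lipid carrier, had 448, 214, 341, 332, 1104 and 613 CPM in mitotic cells and 487, 330, 883, 1391, 1732 and 2141 in other cells, a difference of -1.02 (adjusted p = 0.000327), lower in each library, with the widest gaps in A20 cKO naive, day 1 and day 3. The galectin Lgals3 (-1.36, adjusted p = 0.000436) was low throughout, at 0.81 to 14.8 CPM in mitotic and 8.59 to 61.3 in other cells, and the lysosomal protease Ctsd (-0.54, adjusted p = 4.15e-06) was abundant, at 3545 to 6103 and 4890 to 7736 CPM. Lpl, lipoprotein lipase, did not pass (0.23, adjusted p = 0.368). Among genes of at least 50 CPM in the higher class and with 1 sign in every library, those outside all lists with the lowest ratios were the inhibitory receptor Pirb (-1.27, adjusted p = 1.15e-05), Sult1a1 (-1.13), Cyp4f13 (-1.07), Atp8a2 (-1.01) and the lipopolysaccharide co-receptor Cd14 (-1.01, adjusted p = 2.00e-06). Pirb had 20.4, 23.5, 17.0, 12.1, 31.2 and 31.1 CPM in mitotic cells and 34.0, 66.4, 67.4, 55.2, 64.0 and 101 in other cells, and the ranges did not overlap.

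**Figure D3:**
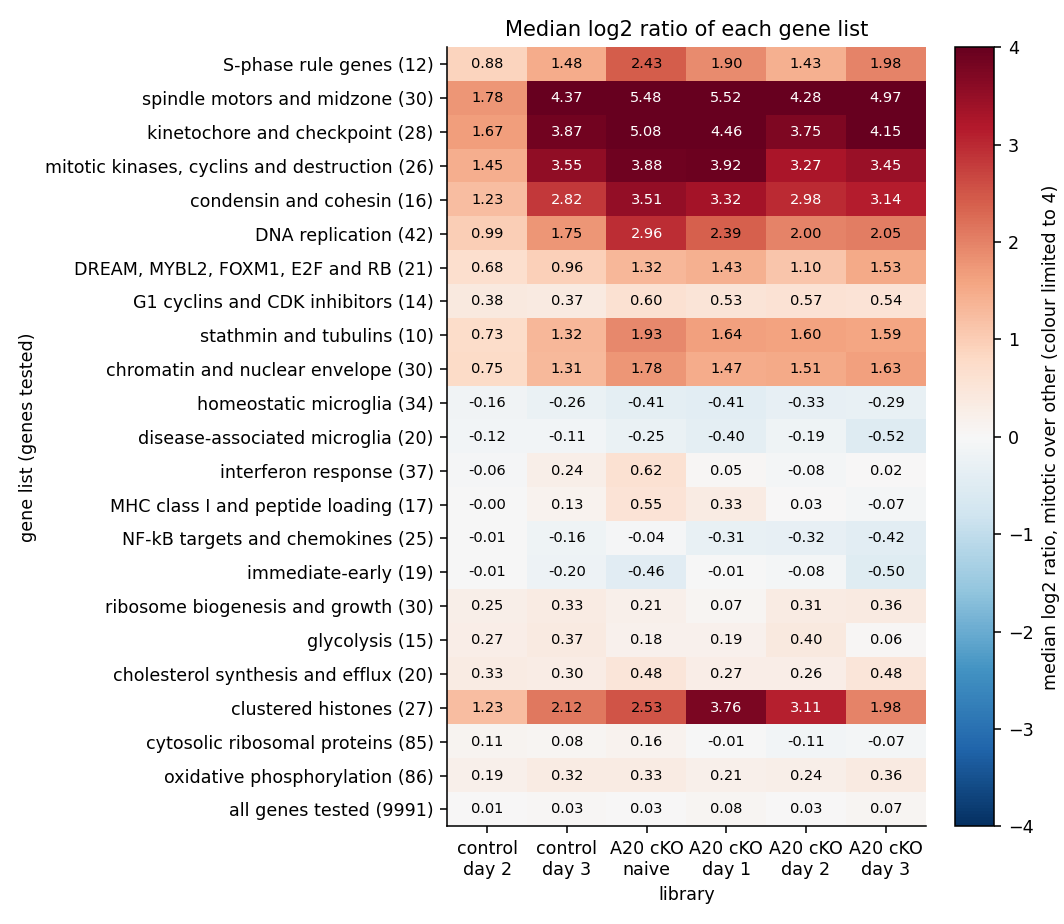
Median log2 ratio of mitotic over other cells for each gene list (rows) in each of the 6 libraries (columns), as a colour scale with the values printed in the cells. The spindle, kinetochore, histone and replication lists are high in every column, and the homeostatic and disease-associated lists have fitted medians of -0.32 and -0.29 over the libraries.

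Inflammatory lists differed between libraries. Of 37 interferon response genes 3 were higher and none lower (median 0.08), against 1452 of 9991 higher over all genes. Without control day 2, 7 of 37 were higher, and against cells without a rule gene UMI 9 of 37 were. Over all genes 1511 of 9693 and 1486 of 9292 were higher in these settings. Thinned cells gave 2 higher. Cells of 3000 to 8000 UMIs gave 1 higher and 1 lower (median -0.04), and leaving out control day 3 gave 2 higher and 1 lower. The median log2 ratio of the list was 0.62 in A20 cKO naive and 0.24 in control day 3, and between -0.08 and 0.05 in the remaining 4 libraries, and that of the MHC class I list was 0.55 in A20 cKO naive, 0.33 in A20 cKO day 1 and between -0.07 and 0.13 elsewhere. Ifi27l2a, an interferon-induced gene, had 271, 1224, 1644, 1486, 1728 and 2195 CPM in mitotic cells and 212, 681, 527, 703, 1291 and 1214 in other cells, a difference of 0.83 (adjusted p = 6.52e-05) and higher in 6 of 6 libraries. The others were the membrane protein Ifitm3 (0.36, adjusted p = 0.0048) and the ISG15 protease Usp18 (0.36, adjusted p = 0.0298). Of 17 MHC class I and peptide loading genes 6 were higher, among them H2-Q4 (0.63, adjusted p = 0.0004) and the immunoproteasome subunit Psmb9 (0.41, adjusted p = 0.00485), and H2-T23 was lower (-0.38, adjusted p = 0.0127). Reads of the H2 family can be split between near-identical copies, so its single members are uncertain.

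Of 25 NF-kB targets and chemokines, 7 were lower and 1 was higher (median -0.21). Il12b, a subunit of interleukins 12 and 23, had 0.57 and 0 CPM in control day 2 and day 3 mitotic cells and 4.24, 0, 14.3 and 17.0 in those of A20 cKO, against 24.5, 41.2, 183 and 60.3 in other A20 cKO cells (fitted difference -2.82, adjusted p = 0.000109). The difference thus came from the 4 A20 cKO libraries, since other control cells held 0 and 0.66 CPM. Ccl4, a chemokine, was lower by -0.71 (adjusted p = 0.0106) and Nfkbia, the NF-kB inhibitor, by -0.31 (adjusted p = 0.0135). Ccl2, the monocyte chemoattractant, had 116, 446, 212, 604, 527 and 732 CPM in mitotic and 66.9, 226, 201, 560, 461 and 551 in other cells, a difference of 0.44 (adjusted p = 0.00492). Among cells of 3000 to 8000 UMIs its difference was 0.13 and did not pass. Tnfaip3 itself gave 0.08 (adjusted p = 0.795), with means of 43.1 CPM in mitotic and 39.3 in other cells.

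Immediate-early genes, which respond within minutes to stimulation and to tissue dissociation, were lower where they differed. Of 19 tested, 7 were lower and none higher (median -0.22). Without control day 2 11 of 18 were lower, and without control day 3 6 of 19 were. Over all genes 1286 of 9693 and 698 of 9974 were lower in these settings. The 7 included Jund (-0.74, adjusted p = 6.43e-05), Btg2, an antiproliferative factor (-0.70, adjusted p = 5.45e-06), and Ier2 (-0.46, adjusted p = 0.0255). Btg2 had 279, 361, 680, 193, 129 and 492 CPM in mitotic cells and 371, 545, 1208, 248, 242 and 933 in other cells, lower in every library.

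**Figure D4:**
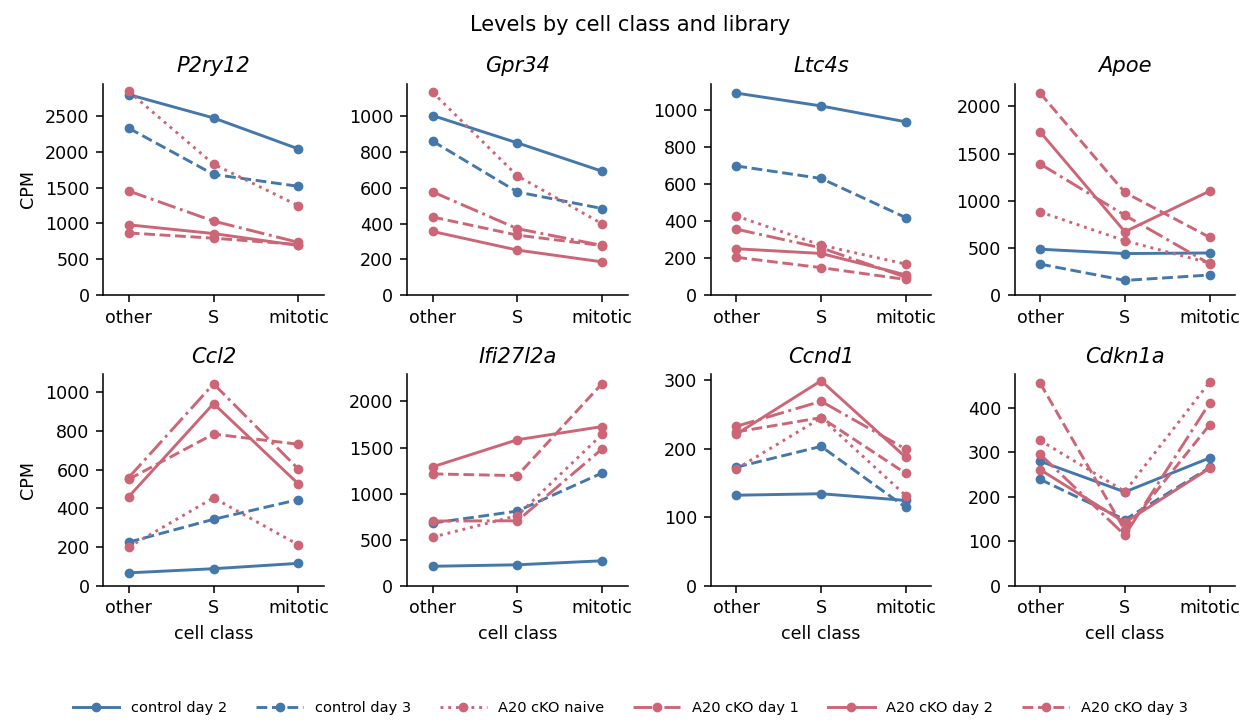
Level (CPM) of 8 genes in other, S-phase and mitotic cells, with a line for each of the 6 libraries, control in blue and A20 cKO in red. P2ry12, Gpr34 and Ltc4s are lower at each step along each line from other to mitotic cells, Ifi27l2a is higher in mitotic than in other cells of all 6 libraries, and Cdkn1a is lowest in S-phase cells of every library.

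Growth and energy genes differed modestly. Of 30 ribosome biogenesis genes 13 were higher and 1 lower (median 0.17), led by Ranbp1, a regulator of nuclear transport and the spindle (1.06, adjusted p = 3.56e-07), and the nucleolar protein Nop58 (0.83, adjusted p = 5.63e-06). Ranbp1 had 399, 293, 314, 501, 464 and 373 CPM in mitotic and 255, 140, 122, 262, 197 and 139 in other cells. Of 15 glycolysis genes 8 were higher and 2 lower (median 0.25): Gapdh was higher (0.62, adjusted p = 8.42e-06) and hexokinase Hk2 was lower (-0.57, adjusted p = 6.31e-05). Of 86 oxidative phosphorylation genes 43 were higher and 1 lower (median 0.24), among them the ATP synthase subunit Atp5o (0.57, adjusted p = 7.38e-05). With thinned cells 10 of 83 oxidative phosphorylation, 4 of 14 glycolysis and 7 of 29 ribosome biogenesis genes were higher. Their medians were 0.17, 0.31 and 0.22, while over all genes 751 of 8574 were higher. With cells of 3000 to 8000 UMIs the counts were 20 of 85, 3 of 15 and 7 of 30. The medians were then 0.11, 0.08 and 0.11, and over all genes 1107 of 9694 were higher. Without control day 3, 27 of 85 oxidative phosphorylation, 8 of 31 ribosome biogenesis and 3 of 20 cholesterol genes were higher. Over all genes 1141 of 9974 were higher in that setting. Of 20 cholesterol genes 5 were higher, such as the synthesis enzymes Idi1 (0.79, adjusted p = 0.0145) and Sqle (0.75, adjusted p = 0.0243), and 2 were lower, among them the efflux pump Abca1 (-0.76, adjusted p = 0.000875). With thinned cells no cholesterol gene was higher at adjusted p under 0.05 by edgeR, with a median of 0.34 against 0.31 before thinning. Of 85 genes with ribosomal protein names 4 were higher and 4 lower (median 0.00), and the highest, Rps6ka5, is a kinase taken in by its name.

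Mitotic cells were also set against the S-phase class. Cells that met both minimums counted as mitotic, 997 of the 1745, so the class names stand for the rules and do not separate the phases. Of 6429 genes tested, 373 were higher in mitotic cells (5.8%) and 163 lower (2.54%), with a median of -0.01. The number lower was 294 without control day 2, 102 without control day 3 and 92 without A20 cKO naive. The S-phase class was itself chosen on replication genes and on lacking the mitotic call, so cycle genes are again a description. Higher in mitotic cells were 21 of 22 spindle genes, 19 of 20 kinetochore genes, 13 of 18 mitotic kinases and cyclins and 14 of 16 condensin and cohesin genes. Kif23, the motor of the central spindle, had 25.7 CPM in control day 2 mitotic cells and 72.1 to 95.3 in the remaining 5, against 0 to 5.17 CPM in S-phase cells. Of 36 replication genes 14 were higher, led by Asf1b (1.81) and Clspn (1.62), and 1 was lower, the uracil glycosylase Ung (-0.71, adjusted p = 0.0215). The histone H2afx differed by 2.23 and Hist1h1b by 5.08, and 11 of 12 clustered histones were higher in the mitotic class.

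The D cyclin and the inhibitor p21 gave opposite patterns between these classes. Ccnd1 had 125, 114, 131, 199, 187 and 164 CPM in mitotic cells, 134, 203, 245, 269, 299 and 245 in S-phase cells and 132, 173, 171, 233, 221 and 225 in other cells. It was lower in mitotic than in S-phase cells in 6 of 6 libraries, by -0.54 (adjusted p = 0.000523). Cdkn1a had 287, 266, 458, 411, 264 and 362 CPM in mitotic cells, 211, 149, 212, 114, 142 and 124 in S-phase cells and 280, 239, 327, 296, 261 and 455 in other cells. It was higher in mitotic than in S-phase cells by 0.94 (adjusted p = 9.01e-07), and the 2 ranges did not overlap.

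Homeostatic transcripts were lower in this comparison too. Of 34 homeostatic genes 11 were lower and none higher, among them Ltc4s (-0.58, adjusted p = 0.000362), P2ry12 (-0.33, adjusted p = 0.000391) and Cst3 (-0.35, adjusted p = 2.12e-06). S-phase cells lay between other and mitotic cells in each library for P2ry12, at 2470, 1684, 1827, 1033, 859 and 795 CPM, and for Gpr34, at 850, 576, 666, 371, 252 and 335 CPM. Of 16 disease-associated genes 4 were lower, of 17 immediate-early genes 5 were lower, led by Ier2 (-0.66, adjusted p = 0.00383), and of 19 NF-kB targets 3 were lower, such as Ccl4 (-0.74, adjusted p = 0.0276) and Ccl12 (-0.37, adjusted p = 0.00724). Ifi27l2a was higher (0.63, adjusted p = 1.20e-05) while Ifit3, an antiviral protein, was lower (-0.45, adjusted p = 0.00792). Of the metabolic lists, 7 of 81 oxidative phosphorylation genes and 1 of 27 ribosome biogenesis genes were higher, against 373 of 6429 over all genes. Their medians were 0.12 and -0.08, against -0.01 over all genes. The 2 glycolysis genes that differed, Hk2 (-0.52) and Aldoa (-0.45), were lower.

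Whether the mitotic profile differed by genotype was tested as the difference between genotypes in the mitotic against other ratio. It was called for 67 of 9991 genes (0.671%), of which 63 had the higher ratio in A20 cKO and 46 belonged to the cell cycle lists. Genes of those lists follow the rule genes by the choice of cells, so their values here are a description. Stmn1 had log2 ratios of 1.09 and 2.54 in control day 2 and day 3 and 3.01 to 4.12 in A20 cKO, a difference of 1.84 (adjusted p = 0.0122). Ltc4s had -0.22 and -0.74 in control and -1.84 to -1.19 in A20 cKO (-0.90, adjusted p = 0.0268). Ccl2 had 0.79 and 0.98 in control and 0.09 to 0.41 in A20 cKO (-0.70, adjusted p = 0.0268). The control arm consists of 2 libraries, and without control day 2 a single gene was called while without control day 3 243 were. In these fits the control arm is 1 library, which is assumed to vary as the A20 cKO libraries do. None was called without A20 cKO naive, day 1 or day 3, or by DESeq2. Control day 2, which had the most rule transcripts in its other cells, lay inside the A20 cKO range for 1 of the 67 genes, and control day 3 for 11.

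Mitotic cells of different libraries were compared by ratios of their summed CPM, with no test, at a 2-fold threshold and beside the same ratio in other cells of the same libraries. Within the control genotype, day 3 was set against day 2. There 660 of 4090 genes passed 2-fold (16.1%), 599 of them higher at day 3, and 445 also passed in other cells. The interferon-induced genes Ifit2, at 268 against 8.03 CPM, and Slfn5, at 151 against 1.43, were far higher at day 3 in mitotic cells, and other cells gave 236 against 8.25 and 119 against 4.18. Exosc2, of the RNA exosome, was 12.2-fold lower at day 3, with 11.3 against 138 CPM. These differences moved with the group of 5 libraries described above and were mostly shared by the other cells, and injury time and library cannot be told apart.

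Against control day 2, mitotic cells of the naive A20 cKO cord had 921 of 4181 genes past 2-fold (22%), 465 of them also in other cells. Against control day 3, from the same group of libraries, 155 of 4190 genes passed (3.7%), 31 of them also in other cells, and with thinned cells 370 passed. The B cell chemoattractant Cxcl13 had 3.24 CPM in control day 3 and 1059 in naive A20 cKO mitotic cells, 327-fold (95% interval 127 to 1204), and 2.81 against 506 CPM in other cells. Ccl5, a chemokine for T cells, had 27.6 against 1583 CPM and 57.5-fold, and 36.4 against 1427 in other cells. Fcrls was 6.13-fold lower in naive A20 cKO mitotic cells but 1.99-fold lower in other cells. Gas6, the ligand of the Axl and Mertk receptors, was 7.27-fold lower, at 25.4 (12 UMIs) against 185 CPM, while other cells had 94.4 against 211 CPM.

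At day 3, where both genotypes have a library in the same group, 227 of 4114 genes passed 2-fold between A20 cKO and control mitotic cells (5.52%), 109 higher and 118 lower in A20 cKO, and 102 also passed in other cells. With thinned cells 600 passed. Cxcl13 was 108-fold higher in A20 cKO mitotic cells and 296-fold higher in other cells. Ccl5 was 79.8-fold and 70.2-fold higher, and H2-Q7 was 23.2-fold higher in mitotic cells, at 469 against 20.3 CPM, and 31.0-fold higher in other cells. Fcrls was 9.61-fold lower in mitotic and 9.47-fold lower in other cells, and Gas6 was 7.27-fold lower in mitotic and 2.1-fold lower in other cells. Fcrls thus had nearly the same ratio in both classes and Gas6 did not. Over the 4114 genes the log2 ratios of the classes had a Pearson correlation of 0.665, a description across genes of libraries shared by both axes.

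**Figure D5:**
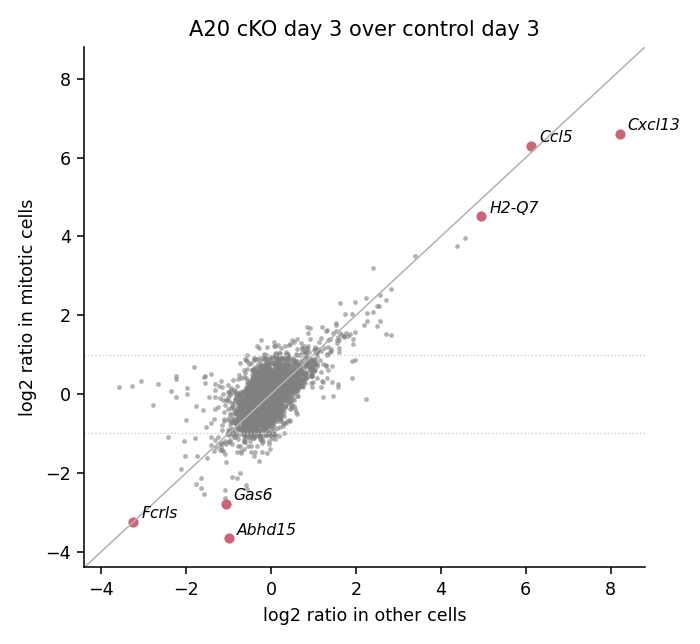
Log2 ratio of A20 cKO day 3 over control day 3 for 4114 genes, in other cells (horizontal axis) and in mitotic cells (vertical axis), with horizontal lines at 2-fold, a diagonal where the classes have equal ratios, and the ranked genes named. Cxcl13 and Ccl5 lie far to the upper right, 108-fold and 79.8-fold higher in mitotic cells. Gas6 lies further down (7.27-fold lower in mitotic cells, from 9 UMIs in A20 cKO) than to the left (2.1-fold lower in other cells).

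Within A20 cKO, mitotic cells after injury were set against those of the naive cord. Day 1 had 105 of 2547 genes past 2-fold (4.12%), day 2 had 101 of 4030 (2.51%) and day 3 had 76 of 3163 (2.4%), all against the same naive library. With cells thinned to 2000 UMIs the numbers past 2-fold were 361, 434 and 371. Of the unthinned, 32, 47 and 31 also passed in other cells. The immediate-early gene Fos had 413 CPM in naive mitotic cells, 6.04 at day 1 (1 UMI), 6.50 at day 2 and 489 at day 3, and 513, 13.6, 26.1 and 506 in other cells. Egr1 had 201, 6.04, 7.80 and 195 CPM in mitotic cells. Days 1 and 2 were low and naive and day 3 were high in both classes, with 1 library at each time. Ccl2 was 2.85-fold higher at day 1 and 3.45-fold higher at day 3 than in naive mitotic cells, with 2.79-fold and 2.75-fold in other cells, and at day 2 it stood at 527 against 212 CPM. Ccl3 and Ccl4 were 3.71-fold and 3.70-fold higher at day 3, with 2.50-fold and 3.17-fold in other cells. Cxcl13 varied with no common direction: mitotic cells had 1059, 72.5, 1805 and 350 CPM from naive to day 3 and other cells 506, 330, 555 and 856, so that day 3 was 3.02-fold lower than naive in mitotic cells and 1.69-fold higher in other cells. Apoe was 3.24-fold higher at day 2 than in naive mitotic cells, and 1.96-fold higher in other cells.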

How the data were processed

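Single-cell RNA counts came from 8 libraries of sorted mouse spinal cord microglia. The authors aligned the reads and deposited UMI counts per gene and barcode for 27998 genes; the submitters' processing notes name Cell Ranger 2.1.1 and mm10. Labels and methods differ on the version of the chemistry. FACS excluded doublets, no doublet caller was run here, and 30 mitotic cells above 3 times their library's median UMIs were left out as an alternative. The matrices hold raw UMI counts, 1648400 to 15817426 a library, with a median of 2780 to 4274 per kept barcode. The members and lists were chosen with earlier results of these data known.

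Cells were kept and called as stated in the report, and S-phase cells had at least 3 of 12 S-phase genes and no mitotic call. UMIs were summed per class in libraries with at least 20 mitotic cells and tested with edgeR 4.0.16 (R 4.3.3, TMM, quasi-likelihood, library as block, Benjamini-Hochberg adjustment over all genes tested), with the code tested on simulated data. The genotype difference was an interaction in the same fit. Pairs of libraries were compared where both mitotic sums together held at least 50 UMIs, with 0.5 added to each for ranking. Genes were named if in the rule or a list, or among the 10 highest and 10 lowest ratios at adjusted p under 0.05 with 1 sign in every library and at least 50 CPM in the higher class, again outside cycle lists, or the 3 highest and 3 lowest of a pair. Mitochondrial, ribosomal-protein, predicted, Xist and Y-linked genes stayed out of rankings. Cdkn1a, Pcna, Prc1 and the other list members shown by library were picked from the lists after their values were seen. Alternatives were DESeq2 1.42.0, no expression filter, cells thinned to 2000 UMIs, cells of 3000 to 8000 UMIs, a minimum of 4 rule genes, the 5 linked libraries alone and each library left out. Reference cells without a rule gene UMI or without S-phase cells, other minimums of rule genes, and the alternatives of the list counts were chosen after seeing the data. Exact binomial (Clopper-Pearson) intervals have 95% coverage. Promoters came from RefSeq, GRCm38.p6. Python 3.11.15 was used with numpy 2.4.6, scipy 1.17.1, pandas 2.3.3 and matplotlib 3.10.9.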

Additional observations from a re-analysis of the deposited data

Results flagged for a closer look

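The difference between genotypes in the ratio of mitotic over other cells was tested for each gene, and 67 of 9991 genes passed edgeR's adjusted p of 0.05, while 738 had an unadjusted p under 0.05. Each value below is the A20 cKO minus control difference of that log2 ratio. Stmn1 differed by 1.84, the midzone protein Prc1 by 3.57, the mitotic kinase Pbk by 4.10 and the linker histone Hist1h1b by 3.10. These 4 are in the cell cycle lists and follow the rule genes by the choice of cells, so their values are a description. Control day 2 was the lowest library for each. Prc1 had ratios of 1.96 and 5.27 in control day 2 and day 3 and of 5.94 to 7.21 in A20 cKO. In the opposite direction Ccl2 differed by -0.70, Ltc4s by -0.90 and Gas6 by -1.17. Gas6 had ratios of 0.11 and -0.19 in control day 2 and day 3 and of -1.83, -1.61, -0.46 and -1.90 in A20 cKO naive, day 1, day 2 and day 3. The control arm held 2 libraries from time points that only in part match the A20 cKO arm, and genotype, time and library cannot be told apart in it.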

How the results depend on the processing

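Of 9991 genes, 1452 were higher and 1078 lower in mitotic than in other cells. With cells thinned to 2000 UMIs these counts were 751 and 547. Leaving out 1 library at a time gave 1141 to 1511 higher and 698 to 1286 lower, the lowest without control day 3. Against S-phase cells (373 higher, 163 lower) DESeq2 gave 242 and 82, no expression filter 560 higher, thinned cells 71 and 27, cells of 3000 to 8000 UMIs 96 lower, a minimum of 4 rule genes 285 lower and the 5 linked libraries 294 lower. Leaving out 1 library gave 280 to 431 higher and 92 to 294 lower. The 67 genes called between genotypes became 0 with DESeq2, 199 with no filter, 18 thinned, 112 at 3000 to 8000 UMIs, 1 in the linked libraries and 37 against cells without a rule gene UMI, a setting chosen after seeing the data. Leaving out 1 library gave 0 to 243: 0 without A20 cKO naive, day 1 or day 3. Leaving out a control library leaves that arm with 1, assumed to vary like the others. The share of mitotic cells was 0.155% thinned and 0.150% at 4 rule genes in control day 1, 15.3% and 22.7% in control day 2, 8.36% and 8.79% in control day 3, and 12.1% and 14.2% in A20 cKO day 2. Thinned, the genes past 2-fold numbered 370 for A20 cKO naive against control day 3, 361, 434 and 371 for A20 cKO days 1, 2 and 3 against naive, and 600 for day 3 between genotypes. The cause of these changes was not tested. Of 60 results for the genes ranked highest or lowest against other or S-phase cells, none changed direction. Among them 7 genes, all of the S-phase comparison, missed the threshold under at least 1 setting. Members of the lists outside these rankings were not counted here, and Ccl2, for example, did not pass against other cells at 3000 to 8000 UMIs. Depth limits A20 cKO day 1, with 31 mitotic cells. Mitotic and other cells of a library were paired by the library block in every fit, and with 1 library a condition no replicate numbers pair conditions.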
